A study of Arabidopsis thaliana with 24 samples.

Results

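SACL1 (AT5G09460) and SACL2 (AT5G50010) are SAC51-like basic helix-loop-helix (bHLH) genes of Arabidopsis thaliana. They were chosen by locus name as antagonists of the TMO5/LHW transcription factor dimer. Each was measured by 1 probe set with a single gene name, so the 2 members are 2 of the 16552 genes of the table. The study followed root meristems of Col-0 seedlings, 4 days old, that carried both pRPS5A::TMO5:GR and pRPS5A::LHW:GR, a line labelled dGR. Seedlings were moved to medium with dexamethasone and sampled at 0, 0.5, 1, 2, 3, 4, 5 and 6 h, with 3 arrays at each time. All 24 arrays, those of 0 h included, came from this line. The RPS5A promoter is active in dividing cells throughout the meristem, so the fusion proteins are not limited to the vascular cells where TMO5 acts. None of the 24 arrays is labelled as seedlings moved to medium without the steroid. For a change from 0 h, the effects of the transfer, of dexamethasone and of the hours passed therefore cannot be told apart.

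TMO5 and LHW form a dimer that drives cell divisions which widen the vascular cylinder of the root. A fusion to the glucocorticoid receptor domain (GR) keeps each protein in the cytoplasm until dexamethasone binds. SAC51 was found as a suppressor of the dwarf acl5 mutant, which lacks the synthase of the polyamine thermospermine. The SAC51-like proteins bind LHW and compete with TMO5 for it, which limits the divisions. Their messenger RNAs carry conserved upstream open reading frames that hold back translation of the main protein. Thermospermine relieves this block for some genes of the family, and not all have been shown to respond. The arrays measured RNA and not protein, so this step of control is outside the measurements.

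Values are log2 expression values, on which a difference of 1 is a doubling of the signal. Array medians lay between 3.86 and 4.01. The first principal component held 18.8% of the variance and ordered the arrays mostly by time. The third repeat lay later along it than the mean of the other 2 at every time, most of all at 0 h, where its score was -5.16 against -27.2 and -21.5. The labels do not say whether repeats came from separate cultures, so p-values measure the spread between these arrays. Precision is limited by having 3 arrays at a time. In bulk tissue, more cells that express a gene and more RNA per cell cannot be told apart.

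SACL2 was at its lowest at 0 h and at its highest 0.5 h after transfer. Its values at 0 h were 4.98, 5.02 and 5.27 on repeats 1, 2 and 3. At 0.5 h they were 5.91, 5.71 and 5.99. Every array of 0.5 h lay above every array of 0 h, and so it was at each later time. The arrays of 1 h read 5.35, 5.66 and 5.49. Those of 2 h read 5.43, 5.32 and 5.41 and had the lowest mean of the steroid-treated seedlings. All 3 arrays of 2 h remained above the highest 0 h array, by a small margin. Among all genes such a rise without overlap was found in 5.51% at 0.5 h, in 5.47% after 1 h and in 6.45% after 2 h. The share was 9.27% for 3 h, 9.73% for 4 h, 9.79% for 5 h and 10% for 6 h.

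From 3 h on the means of SACL2 lay above that of 2 h. The arrays of 3 h read 5.57, 5.67 and 5.86, and those of 4 h read 5.70, 5.55 and 5.69. The values of 5 h were 5.57, 5.41 and 5.58. Those of 6 h, at 5.71, 5.77 and 5.85, overlapped with those of 0.5 h. The arrays of 5 h reached down into the range of 2 h, while those of 3, 4 and 6 h did not overlap with it.

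In the fit of all arrays with limma, a linear model with a moderated spread, SACL2 rose at 5 of the 7 times. The threshold for a call was 0.05 on the p-value adjusted by Benjamini-Hochberg over all 16552 genes. The log2 change from 0 h was 0.78 ± 0.11 (SE, n = 3) at 0.5 h, a 1.72-fold rise (limma adjusted p = 0.00111). Only 0.145% of all genes were called higher at that time. The rise was 0.61 at 3 h (limma adjusted p = 0.00329), a time with 2.33% of genes called higher. It was 0.56 at 4 h (limma adjusted p = 0.00710), with 1.78% of genes called higher. At 6 h it was higher by 0.68 ± 0.11, or 1.60-fold (limma adjusted p = 8.94e-04), against 2.50% of genes called higher. At 5 h the change was 0.43 (limma adjusted p = 0.0320, with 2.09% of genes called higher). That call was lost without repeat 1 or 2 of 0 h and without repeat 1 or 3 of 5 h (limma adjusted p from 0.110 to 0.146), and under median centring of the arrays (limma adjusted p = 0.0659).

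The 2 times at which SACL2 was not called were 1 and 2 h. Its log2 change was 0.41 at the former (limma adjusted p = 0.132) and 0.30 at the latter (limma adjusted p = 0.263). At these times 0.326% and 0.501% of all genes were called higher. Without repeat 3 of 0 h, the highest of the 3 values there, the change at 1 h was 0.50 and was called (limma adjusted p = 0.0442). At 2 h it stayed uncalled in all fits that left out 1 array, with changes between 0.24 and 0.39.

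SACL1 stepped up by 0.5 h and stayed near that level. Its values at 0 h were 5.08, 5.48 and 5.40 on repeats 1, 2 and 3, with repeat 1 the lowest. At 0.5 h they were 5.82, 5.84 and 5.78, all above the 0 h arrays. The arrays of 1 h read 5.66, 5.72 and 5.80 and those of 2 h read 5.46, 5.73 and 5.68. Repeat 1 of 2 h, at 5.46, lay just under the highest 0 h array and was the single array after 0 h within the 0 h range.

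At the later times the arrays of SACL1 stayed between 5.53 and 5.79. The arrays of 3 h read 5.75, 5.72 and 5.53, and those of 4 h read 5.79, 5.59 and 5.71. After 5 h the values were 5.62, 5.65 and 5.69, and after 6 h they were 5.77, 5.76 and 5.73. The spread between repeats was small at 0.5, 5 and 6 h, with SDs of 0.03, 0.04 and 0.02 (n = 3), and was widest at 0 h, with an SD of 0.21.

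**Figure D1:**
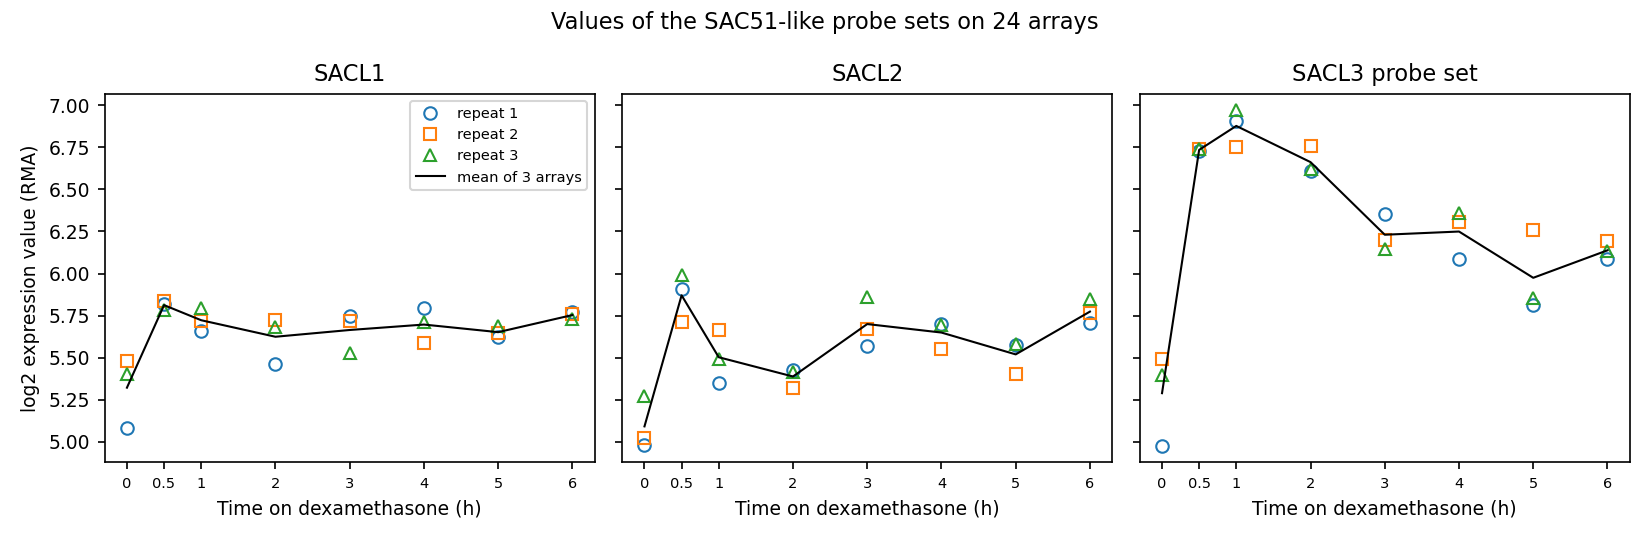
Log2 expression values (vertical axis) of SACL1, SACL2 and the SACL3 probe set described further on, against hours on dexamethasone, with 1 symbol per array and a line through the means of 3 arrays. All 21 arrays after 0 h lie above the 0 h arrays for SACL2, with a low point at 2 h, and 20 of 21 do for SACL1; the height of one panel cannot be compared with that of another.

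SACL1 was called at 2 of the 7 times, 0.5 and 6 h. The log2 change was 0.49 ± 0.10 (SE, n = 3) at 0.5 h, a 1.40-fold rise (limma adjusted p = 0.0451), and 0.43 ± 0.10 at 6 h, or 1.35-fold (limma adjusted p = 0.0182). The smallest change in between was 0.30, at 2 h (limma adjusted p = 0.205), and the largest was 0.40, at 1 h (limma adjusted p = 0.108). The change of 4 h lay just past the threshold (limma adjusted p = 0.0510). At 0.5 h the call, but not the direction, was lost in 27 of 33 alternatives, over which the change ran from 0.37 to 0.57. The call at 6 h was lost without repeat 1 of 0 h, with a change of 0.31 (limma adjusted p = 0.128), and without each array of 6 h, with changes from 0.42 to 0.44 (limma adjusted p from 0.0515 to 0.0646). Repeat 1 of 0 h also carried part of the uncalled changes: without it that of 2 h was 0.18 and that of 5 h was 0.21, in place of 0.33.

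The 21 arrays after 0 h were then set against the 3 arrays of 0 h as a whole, which asks whether the level of each member after transfer differed from that before it. All 21 later arrays of SACL2, between 5.32 and 5.99 with a median of 5.66, lay above the highest 0 h array at 5.27. This held for 0.399% of all genes. The mean of the 7 later times was higher by 0.54 ± 0.08 (SE), and 1.90% of genes were called higher in this comparison (limma adjusted p = 6.27e-04). An exact two-sided permutation test of 3 against 21 arrays gave p = 9.88e-04, the smallest it can give. For SACL1, 20 of the 21 later arrays, which ran from 5.46 to 5.84 with a median of 5.72, lay above all 0 h arrays, and at least 20 did so for 0.852% of all genes.

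The mean of the later times was higher by 0.38 ± 0.08 for SACL1 (limma adjusted p = 0.00728, exact permutation p = 0.00198). Without repeat 1 of 0 h, the lowest of the 24 values, the change was 0.26 and was not called (limma adjusted p = 0.143). For SACL2 the comparison was called in all 32 alternatives, with changes from 0.48 to 0.63.

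The times after 0 h were compared with each other to ask whether the levels went on moving once the steroid was present. The 0 h arrays enter these differences through the estimate of the spread alone. SACL2 was lower at 2 h than at 0.5 h by 0.48 ± 0.11 on the log2 scale (limma adjusted p = 0.0593), and the arrays of the 2 times did not overlap. At 6 h it was higher than at 2 h by 0.39 ± 0.11 (limma adjusted p = 0.173), again without overlap. Neither step was called, as against 0.326% and 0.296% of all genes. Steps without overlap in these directions were found in 7.03% of genes from 0.5 to 2 h and in 7.70% from 2 to 6 h. A fall without overlap from 0.5 to 2 h followed by a rise without overlap from 2 to 6 h was found in 1.39% of all genes.

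Across all 6 differences from 0.5 h, the moderated F test gave a limma adjusted p of 0.0884 for SACL2 and of 0.849 for SACL1. This test called 2.46% of all genes. SACL2 passed its threshold in 1 of 32 alternatives, the one with the repeat number as a block, as given further on. Of the 21 pairs of times after 0 h, none was called for either gene after adjustment over all genes. Unadjusted, 8 pairs had a limma p under 0.05 for SACL2 and none had for SACL1. These pairs share arrays, and the share of all genes at that unadjusted threshold was not counted. No difference between the members is therefore read from these counts. The late times of 4, 5 and 6 h differed from 0.5, 1 and 2 h by 0.06 (95% interval -0.07 to 0.19) for SACL2 and by -0.02 (95% interval -0.14 to 0.10) for SACL1. Both were uncalled, with limma adjusted p of 0.645 and 0.900, where 4.39% of all genes were called higher and 2.60% lower. Such splits depend on the scaling: after median centring 614 genes were called higher and 692 lower, in place of 727 and 431.

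In order of its mean, SACL2 was highest at 0.5 h (5.87), followed by 6 h (5.77), 3 h (5.70), 4 h (5.65), 5 h (5.52), 1 h (5.50), 2 h (5.39) and 0 h (5.09). The order for SACL1 was 0.5 h (5.81), 6 h (5.75), 1 h (5.72), 4 h (5.70), 3 h (5.66), 5 h (5.65), 2 h (5.62) and 0 h (5.32). No neighbours in either order differed at an adjusted p under 0.05. The lowest was that of 2 h against 0 h, with a limma adjusted p of 0.205 for SACL1 and 0.263 for SACL2. Both members had 0.5 h and 6 h on top and 2 h as the lowest time after 0 h.

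Whether the members changed by different amounts was tested on the difference of their values on each array, which removes what an array shares. The difference itself has no meaning, since probes differ in brightness, but its shift does. The mean of SACL2 minus SACL1 was -0.23 at 0 h (from -0.46 to -0.10, n = 3) and -0.07 over the 21 later arrays. The change of SACL2 over all later times was thus larger than that of SACL1 by 0.16 (95% interval -0.06 to 0.37, from the spread within times), and the exact two-sided permutation test gave p = 0.167. Without repeat 2 of 0 h this difference was 0.04, and without repeat 1 it was 0.22. At single times the difference between the changes ran from -0.01 at 2 h to 0.29 at 0.5 h. The 95% interval at 0.5 h, from 0.003 to 0.573, was the one among 7 that did not hold 0. The exact permutation p at that time was 0.2. It was 0.1, the smallest that 3 against 3 arrays can give, for the differences of 0.18 at 4 h and 0.25 at 6 h. These single times cannot reach a p under 0.05 in such a test, and over all later times a larger change of SACL2 than of SACL1 was not shown.

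**Figure D2:**
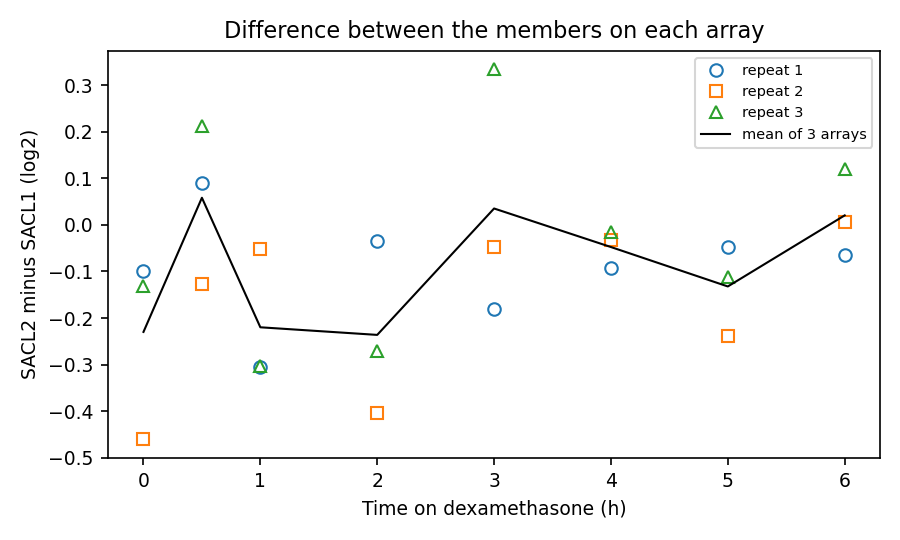
Difference between the log2 values of SACL2 and SACL1 on each array (vertical axis) against hours on dexamethasone, with 1 symbol per array and a line through the means of 3 arrays. The means at 0, 1 and 2 h lie between -0.24 and -0.22 and those at 0.5, 3 and 6 h between 0.02 and 0.06. The repeats of 6 h lie above those of 0 h, and otherwise the repeats of these 2 sets of times overlap.

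Over the 8 time means SACL1 and SACL2 followed a like course, with a Pearson r of 0.91. SACL2 stood 10th among the 16551 other genes by likeness to SACL1, and SACL1 stood 9th by likeness to SACL2. The low level of both members at 0 h weighs in this value, and r without 0 h is not given here. At each time both members were read on the same 3 arrays. Within times the members did not move together. The deviations of the 24 arrays from their time means had a Pearson r of -0.01 and a Spearman rho of -0.09, and r was -0.16 without the 2 arrays farthest from the median of SACL1.

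Among the changes of all genes, SACL2 had the 28th largest rise at 0.5 h and the 319th largest at 6 h. SACL1 stood 207th and 938th. At 2 h the members lay side by side, in places 1166 and 1106. Both were among the steadier genes between repeats. The SD within times was 0.11 for SACL1 and 0.12 for SACL2, against a median of 0.19 over all genes, and 11.9% and 16.2% of genes had a lower one.

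**Figure D3:**
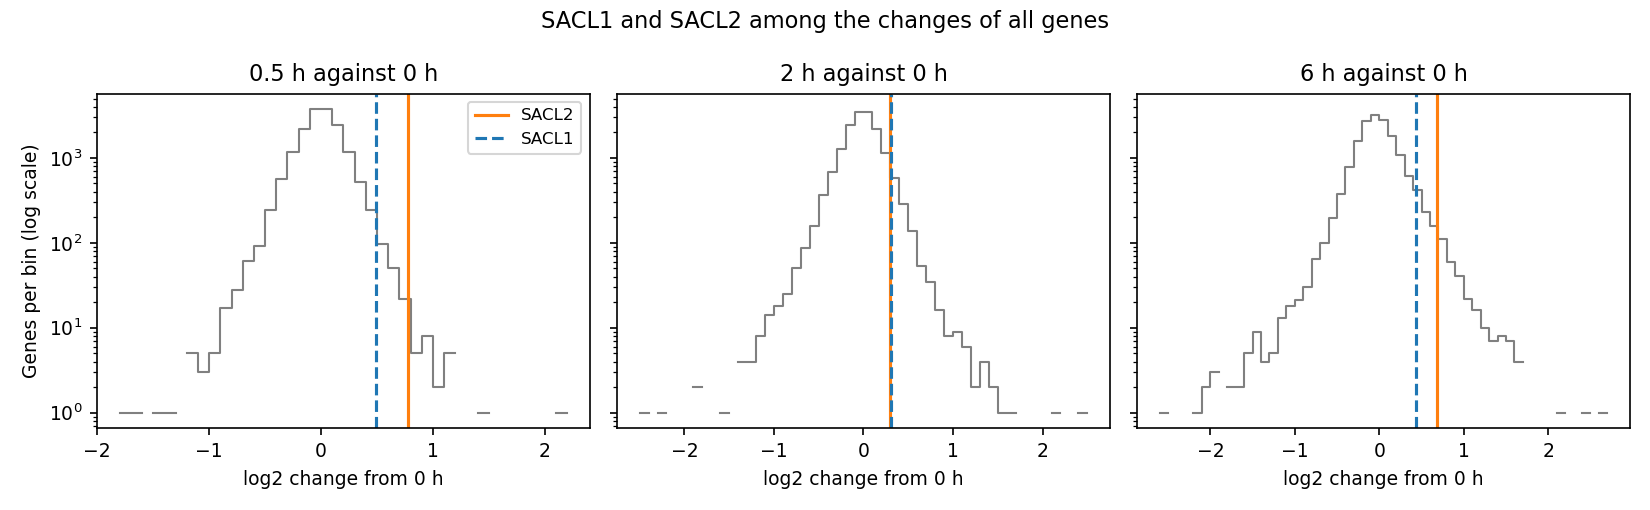
Number of genes per 0.1-wide bin of log2 change from 0 h (vertical log axis; bins with no gene left blank) at 0.5, 2 and 6 h, with vertical lines at SACL1 (dashed) and SACL2 (solid). At 0.5 h SACL2 lies at 0.78 in the upper tail and SACL1 at 0.49 nearer the bulk, and at 2 h both lie at 0.30.

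The other antagonists come next. A further probe set is paired with the SACL3 locus, AT1G29950, under 2 gene IDs, 1 of them not in the RefSeq table, so it was kept out of the gene table and fitted among all 38408 probe sets by ID. Transcription of SACL3 is known to be activated by TMO5 and LHW. Before transfer this probe set read 4.98, 5.50 and 5.39, and after 0.5 h it read 6.73, 6.74 and 6.74. It was highest after 1 h, with 6.91, 6.75 and 6.97, and its mean was then 6.66 at 2 h, 6.23 at 3 h and, at the end, 6.14. All 21 later arrays lay above the 0 h arrays, as for SACL2. This held for 0.399% of the genes of the gene table, and the share over all probe sets was not counted.

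The SACL3 probe set rose at all 7 times, by 1.44 ± 0.13 (SE, n = 3) in log2 at 0.5 h (limma adjusted p = 1.26e-05). Its largest rise was 1.59, after 1 h, its smallest was 0.69, after 5 h, and the rise was 0.85 after 6 h. In that fit 0.0885% of probe sets were called higher at 0.5 h, 0.253% after 1 h, 0.443% after 2 h and 1.65% after 3 h. At 4, 5 and 6 h it was 1.21%, 1.57% and 1.77%. It was lower at the late than at the early times by 0.64 (limma adjusted p = 4.82e-05), as were 1.85% of probe sets. The members showed no such fall, and the difference was tested. The per-array difference of the SACL3 probe set from SACL1 fell by 0.62 from early to late times (exact permutation p = 4.11e-05, the smallest that 9 against 9 arrays can give, adjusted over 3 such tests p = 1.23e-04). Its difference from SACL2 fell by 0.70 (exact permutation p = 2.06e-04, adjusted p = 3.09e-04), while that between SACL2 and SACL1 moved by 0.08 (exact permutation p = 0.305). These tests were chosen after the values were seen. Whether probes of 1 family member also detect RNA of another was not tested.

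In the list of the TMO5/LHW module, 5 of 13 genes had a probe set with a single gene name: the members, LHW, T5L2 (AT2G41130) and T5L3 (AT3G56770). SACL1 and SACL2 were the 2 called at 0.5 h and at 6 h, and SACL2 alone was called at 3, 4 and 5 h. Of all genes 0.145% were called higher at 0.5 h and 2.50% at 6 h. The share was 2.33%, 1.78% and 2.09% at 3, 4 and 5 h. The median change of the 5 was 0.41 at 0.5 h and 0.13 at 6 h, beside 0.00 and -0.03 over all genes. The genes of the activating dimer, LHW and the TMO5-like T5L2 and T5L3, were not called at any single time. In the F test over all changes from 0 h T5L3 was called (limma adjusted p = 0.0489), as were 4.50% of all genes. LHW was higher at the late than at the early times by 0.21 (limma adjusted p = 0.0424), as were 4.39% of all genes. Both calls lay near the threshold. LHW ran from -0.36 at 1 h (limma adjusted p = 0.202) to -0.02 at 5 h. Its signal may hold RNA of the introduced LHW:GR copy, which was not separated. T5L2 ran from -0.02 at 6 h to 0.41 at 0.5 h (limma adjusted p = 0.624 at 0.5 h). T5L3 had its highest change at 1 h, 0.57, with a limma adjusted p of 0.0804. Its signal was dim, from 1.81 to 2.00 at 0 h and from 1.57 to 2.52 later, under the array medians of 3.86 to 4.01.

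**Figure D4:**
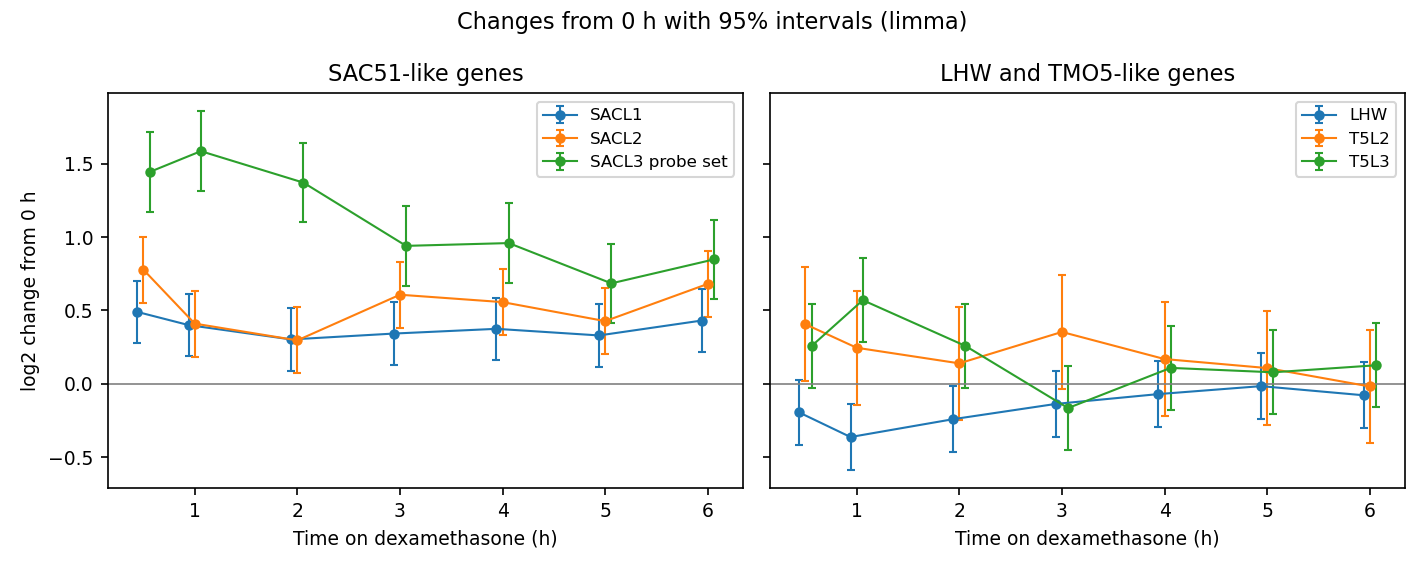
Log2 change from 0 h (vertical axis) with 95% intervals from limma against hours on dexamethasone, for SACL1, SACL2 and the SACL3 probe set on the left and for LHW, T5L2 and T5L3 on the right. Points are shifted slightly sideways for legibility, and all intervals of the left panel, which are not adjusted for the number of genes, lie above 0. The change of the SACL3 probe set is 1.59 at 1 h, 0.69 at 5 h and 0.85 at 6 h.

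The route to thermospermine was hardly covered by the gene names available for the probe sets. The 20904 unnamed probe sets were not searched for its genes. Of 26 genes (polyamine synthesis and breakdown, acl5 suppressors, upstream open reading frames), 2 had a probe set with a single gene name. They were SAMDC1 (AT3G02470), an S-adenosylmethionine decarboxylase gene, and RPL4A (AT3G09630), a ribosomal protein gene. SAMDC1 changed by -0.08 to 0.17 and RPL4A by -0.16 to 0.04, and neither was called at any time, with the lowest limma adjusted p at 0.296 and 0.453. Of 6 published targets of the dimer 2 had such a probe set, the transcription factor gene DOF2.1 and the beta-glucosidase gene BGLU44. The study chose DOF2.1, so it is not independent evidence. At 0.5 h, where SACL1 and SACL2 had their highest values, DOF2.1 had a change of 0.12 and BGLU44 of -0.08, both uncalled (limma adjusted p = 0.904 and 0.982). DOF2.1 rose at the other 6 times, by 0.68 after 1 h (limma adjusted p = 0.0430) and by up to 1.16, after 3 h (limma adjusted p = 1.49e-04). BGLU44 rose at 5 times. Over the times of these calls between 0.326% and 2.50% of all genes were called higher. At 6 h BGLU44 was higher by 2.66 and was called (limma adjusted p = 1.55e-05).

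Genes with a like course were sought among the 745 genes that the F test over all changes from 0 h called, 4.50% of those tested. By Pearson r over the 8 time means, the nearest to SACL1 were SACL2 (r = 0.91), AT5G39240 (r = 0.89), AT1G72210 (r = 0.88), AT5G02580 (r = 0.88) and AT5G17760 (r = 0.87). The nearest to SACL2 were AT1G14120 (r = 0.82), AT5G19730 (r = 0.81), AT1G72210 (r = 0.80), AT3G20015 (r = 0.79) and RALFL27 (r = 0.75), a gene of the RALF family of signalling peptides. SACL1 itself was not called by this F test (limma adjusted p = 0.0845), whereas SACL2 was (limma adjusted p = 0.00185). AT1G72210, which RefSeq also names bHLH96, was in both sets, with changes of 0.80 at 0.5 h (limma adjusted p = 0.0386), 0.67 after 2 h and 0.56 after 6 h (limma adjusted p = 0.0517). These likenesses rest on 8 means that share the 0 h arrays and are given as a description.

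Of 33 marker genes of root and shoot cell types, 7 had a probe set with a single gene name. BBM, a root meristem marker, lay between 4.91 and 5.60 at 0 h and between 4.52 and 5.51 later, and was not called at any time. The vascular marker PHV ran from 4.82 to 5.24 at 0 h and from 4.79 to 5.39 later. The mean of the phloem markers OPS and CLE45 ran from 2.79 to 3.50 at 0 h and from 3.07 to 3.85 later, and none of the 3 was called. The shoot marker RCA ran from 4.49 to 4.65 at 0 h and from 4.66 to 5.53 later. All its 21 later arrays lay above 0 h, as for SACL2 and for 0.399% of all genes. RCA was not called at 0.5, 1 or 2 h. It was called higher at 3, 4, 5 and 6 h, times with 1.78% to 2.50% of all genes called higher. The root hair genes EXPA7 and EXPA18 had a mean level of 7.01 to 7.75 at 0 h and 7.22 to 8.41 later. Both were called higher at 3 h, as were 2.33% of all genes. CLE45 was dim, from 1.86 to 2.36 at 0 h, and whether the markers were detected was not tested. The part of such shifts in the changes of SACL1 and SACL2 was not tested. That of the third repeat was looked at through alternative fits alone. Those with the repeat number as a block and without single arrays are given further on. In the fit without repeat 3 of 0 to 2 h, SACL2 was called at 0.5, 3, 4, 5 and 6 h, as with all arrays. SACL1 was called at 4 h, by 0.42 (limma adjusted p = 0.0484), and at 6 h, and not at 0.5 h, where its change was 0.55 (limma adjusted p = 0.118).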

How the data were processed

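RNA of root meristems was hybridised to Affymetrix whole-transcript arrays, per the labels' protocols. The authors deposited log2 values per probe set, and the submitters' processing notes name RMA as the tool, with no version or genome build. RMA quantile-normalizes arrays, so a shift shared by most genes would be removed. Detection calls were not used here.

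There were 38408 probe sets. GEO's platform annotation named 1 gene for 16746 and several for 758, and 20904 were unnamed here. Of the 16746, 16601 matched the TAIR10.1 RefSeq table. Probe sets were averaged per gene, giving 16552 genes. No coordinates were used beyond gene order. Fits used limma 3.58.1 in R 4.3.3 with 8 group means for 24 arrays and Benjamini-Hochberg adjustment over all genes. The fits were first tested on simulated data with known changes. Single values were compared with exact permutation tests.

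The members, lists, tests and alternatives were chosen with earlier results of these data known. Named are the members, measured list genes, the 5 genes most like each member, and neighbouring genes. Alternatives were a trended, robust variance, weighted arrays, median centring, quantile normalization once more, the repeat number as a block, dropping dim genes, all probe sets by ID, fits of the 6 arrays compared, leaving out each array, and leaving out repeat 3 of 0 to 2 h.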

Additional observations from a re-analysis of the deposited data

How the results depend on the processing

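The rises of SACL2 at 0.5, 3, 4 and 6 h and over all later times, and the 7 rises of the SACL3 probe set, were called whichever array was left out. Calls of SACL1 sat near the threshold. Its change at 0.5 h was 0.49 and uncalled with all probe sets by ID, with a trended variance, with the replicate block and with only the 6 arrays compared. It was 0.47 with array weights and after second quantile normalization, 0.46 after median centring and 0.55 without repeat 3 of 0 to 2 h (limma adjusted p from 0.0512 to 0.705). The replicate block and the dim-gene filter left the change of SACL1 at 4 h at 0.37 and called it, as did leaving out repeat 3 of 0 to 2 h, at 0.42. The dim-gene filter also called its change of 0.34 at 3 h. At 6 h SACL1 was uncalled after median centring, at 0.35, and with only the 6 arrays compared, at 0.43. Fits of 6 arrays kept the values of SACL2 (0.78, 0.61, 0.56 and 0.43 at 0.5, 3, 4 and 5 h) but lost these calls (limma adjusted p from 0.121 to 0.354). Its change at 5 h was 0.37 and uncalled after median centring. Under the replicate block the F test of SACL2 among 0.5 to 6 h passed the threshold, with a limma adjusted p of 0.0427. The numbers were not taken as pairs, since the labels tie them to no shared batch. This choice does not show that arrays of a repeat had no common shift. Correlations of the deviations ran from -0.03 to 0.22 over 84 same-numbered pairs (median 0.03). Over 168 others they ran from -0.16 to 0.06 (median -0.02). The block moved the count of called genes from 464 to 728 at 4 h and from 408 to 621 in the F test after 0 h. Of the TMO5/LHW module, 1 gene was called under median centring and with 6 arrays, in place of 2.

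Leaving out 1 array at a time moved the change of SACL1 between 0.37 and 0.57 at 0.5 h, 0.18 and 0.38 for 2 h, 0.22 and 0.42 for 3 h, 0.25 and 0.45 for 4 h, 0.21 and 0.41 for 5 h, 0.31 and 0.51 for 6 h, and 0.26 and 0.46 over all later times. The change of SACL2 moved between 0.33 and 0.50 for 1 h and between 0.37 and 0.52 at 5 h, and the module count between 1 and 3. The change of SACL2 minus that of SACL1 turned its sign, running from -0.105 to 0.0759 at 1 h, from -0.122 to 0.0596 after 2 h and from -0.0176 to 0.164 after 5 h. Over all later times it ran from 0.04 to 0.22. Without repeat 3 of 0 to 2 h it was 0.0601 at 2 h.

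Counts of called genes moved more than the members. Median centring turned the balance of higher and lower calls, from 83 and 78 to 64 and 109 at 2 h, 386 and 193 to 246 and 407 at 3 h, 294 and 170 to 181 and 264 for 4 h, 346 and 205 to 247 and 338 for 5 h, 413 and 273 to 271 and 521 for 6 h, and 314 and 264 to 214 and 507 over all later times. At 0.5 h it went from 24 and 13 to 17 and 14. Over the fits without 1 array they ran from 17 to 64 at 0.5 h (37 with all arrays), 43 to 124 at 1 h (78), 103 to 275 at 2 h (161) and 195 to 1174 at 3 h (579). They ran from 190 to 996 at 4 h (464), 220 to 1023 at 5 h (551), 317 to 1129 at 6 h (686) and 181 to 1141 over all later times (578). With only 6 arrays they were 0, 2, 8, 41, 69, 101 and 197 at 0.5 to 6 h. With all probe sets by ID they were 56, 140 and 286 at 0.5, 1 and 2 h, 2064 for late against early times, and 1163 and 676 by the F tests over all changes and after 0 h, in place of 1158, 745 and 408. Without repeat 3 of 0 to 2 h they were 1328, 1076, 1091 and 1204 at 3 to 6 h and 987 over all later times, and with array weights 236 there. The lowest F count after 0 h without 1 array was 261. The causes were not tested.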

Other observations

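The genes next to the members on the chromosome were looked at, in the gene order of TAIR10.1. Of the 2 on each side, 7 of 8 were measured, AT5G09445, AT5G09450 and AT5G09480 near SACL1 and AT5G49990, AT5G50000, AT5G50020 and AT5G50030 near SACL2. None was called at any time by limma, and the lowest adjusted p was 0.192, for AT5G09450. Next to SACL2 the changes from 0 h ran from -0.18 to 0.23. Next to SACL1 they ran from -0.08 to 0.63, with the highest for AT5G09480, whose lowest limma adjusted p was 0.519.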
